A study of Mus musculus with 6 samples.

Results

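Cenpf, Mki67 and Top2a are 3 of the 16448 genes listed for adult mouse cardiomyocytes (CMs) that lacked Cpt1b or carried an intact gene. They were found by gene symbol in the expression table. All 3 were chosen by their measured values in these same samples: Cenpf because its level was lower in the knockout, and Mki67 and Top2a because they did not fall with it. Their levels and fold changes are therefore descriptions and were not tested.

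CPT1B, the muscle form of carnitine palmitoyltransferase, lets long-chain fatty acids enter mitochondria for oxidation, and the study examined CMs in which this step was removed. RNA-seq was carried out on total RNA from ventricular CMs isolated by enzymatic digestion and centrifugation, from 3 CtrlCre and 3 Cpt1bcKO mice of the C57BL/6 strain, aged 8 to 12 weeks. CtrlCre mice carried αMHC-Cre (pos/+) and unmodified Cpt1b (+/+). Cpt1bcKO mice carried αMHC-Cre (pos/+) and Cpt1b with loxP sites in both alleles (fl/fl), so that both groups expressed the recombinase. The αMHC (Myh6) promoter drives it in CMs and is active in the heart before birth, so that Cpt1b can be lost long before the adult stage studied, and other cells of the preparation keep the gene.

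CENP-F, encoded by Cenpf, is a very large coiled-coil protein that accumulates in G2, gathers at the nuclear envelope before division, binds the outer kinetochore and microtubules in mitosis and is degraded afterwards. It also has partners outside the kinetochore, among them the nuclear pore protein NUP133, dynein adaptors and the mitochondrial Miro proteins. Ki-67, encoded by Mki67, coats the surface of mitotic chromosomes and is widely used as a marker of cycling cells, whereas topoisomerase IIα, encoded by Top2a, untangles sister chromatids in S phase and mitosis. Transcripts of markers of dividing cells such as Mki67 and Top2a are usually scarce in the adult heart, where few CMs divide.

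The transcription of many late cell cycle genes depends on the CHR element, spelled TTTGAA or less often TTCGAA, and on CCAAT boxes, bound by the DREAM and MYB-MuvB complexes and by NF-Y. The promoters of the 3 genes are shown because they place these letters beside the measured differences. RefSeq (GRCm38.p6) gives the following 200 bases on the strand of each gene, from 190 bases before the start to the tenth base of the transcript, 5′ to 3′, with every match to the letters of either element, on either strand, in capitals.
Cenpf: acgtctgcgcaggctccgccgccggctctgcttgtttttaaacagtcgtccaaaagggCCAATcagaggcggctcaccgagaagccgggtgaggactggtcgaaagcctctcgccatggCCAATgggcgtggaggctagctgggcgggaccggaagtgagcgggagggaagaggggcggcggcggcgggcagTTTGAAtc
Mki67: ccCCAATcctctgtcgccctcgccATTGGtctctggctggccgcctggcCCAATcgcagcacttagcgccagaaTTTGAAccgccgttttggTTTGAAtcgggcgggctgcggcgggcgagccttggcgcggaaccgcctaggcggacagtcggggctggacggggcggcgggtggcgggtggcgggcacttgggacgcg
Top2a: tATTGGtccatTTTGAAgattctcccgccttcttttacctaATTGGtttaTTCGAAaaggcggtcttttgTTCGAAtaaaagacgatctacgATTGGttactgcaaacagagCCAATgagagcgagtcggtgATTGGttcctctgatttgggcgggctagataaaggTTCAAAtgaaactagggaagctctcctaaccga
They lie at chr1:189688077-189688276, chr7:135716370-135716569 and chr11:99024180-99024379, all on the minus strand. All 3 windows held both motifs. The Cenpf window had 1 TTTGAA, which begins 2 bases after the start base, and CCAAT at 132 and 71 bases before it. The Mki67 window had TTTGAA at 116 and 98 bases before the start, and Top2a had 4 matches to the CHR letters, the nearest 23 bases before it. In promoter entries of 300 bases, the CHR letters occurred in 19.2% of 32851 entries and CCAAT in 37.4%, with both in 7.52%. The listed mitotic genes described further on had 56 such entries from 50 genes, of which 66.1% held the CHR letters and 51.8% held both motifs. A match to these letters was not tested as a binding site.

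In the table, values are normalised counts, that is read counts scaled by a size factor of the sample and given as integers. They summed to 13393411 to 31722217 per sample, of which mitochondrially encoded and rRNA genes took 74.8 to 78.1% in CtrlCre and 76.5 to 89.5% in Cpt1bcKO, leaving 3146414 to 3551692. The worth of a single read, resolved in 4 samples from the spacing of low values, was 0.682 to 1.29, so that low values rest on about as many reads as they show. It was not resolved in CtrlCre replicate 1 and Cpt1bcKO replicate 2. Cpt1b itself was at 1861, 893 and 1443 in CtrlCre and at 211, 353 and 285 in Cpt1bcKO, a log2 fold change of −2.27 (SE 0.27, adjusted p = 0.00338, limma with Benjamini–Hochberg adjustment over 11364 genes). With 1 prior variance for all genes the limma adjusted p of Cpt1b was 0.0563, which is above 0.05. Replicate 1 of each group had high Xist (957 and 1080) and no Ddx3y, whereas the other 4 samples had Xist of 23 to 78 and Ddx3y of 576 to 710. Sex was not part of any model. The cardiomyocyte markers (Myh6, Tnnt2, Actc1, Tnni3, Ryr2, Pln, Mybpc3 and Myl2) were abundant in every sample, with summed values of 231522 to 290721 in CtrlCre and 181543 to 213198 in Cpt1bcKO. Of these 8, 7 had a log2 fold change below 0 and 1 above. At an unadjusted p below 0.05 by limma, 2 were lower and none higher, against 7.22% and 6.66% of the 11364 genes. No adjusted p was below 0.05 (smallest 0.0678, limma). Groups did not overlap for 4 lower and 1 higher, against 9.6% and 9.13%.

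Cenpf (ENSMUSG00000026605, chr1:189640606-189688086, minus strand, GRCm38) was at 1045, 519 and 593 normalised counts in CtrlCre replicates 1, 2 and 3 and at 42, 85 and 56 in Cpt1bcKO replicates 1, 2 and 3. Every Cpt1bcKO sample was below every CtrlCre sample, and the lowest CtrlCre value was several times the highest Cpt1bcKO value. The means were 719 ± 285 and 61.0 ± 21.9 (SD, n = 3 each), which is an 11.8-fold lower level, or a log2 fold change of −3.53 (SE 0.30) on the log2(value + 1) scale. Of the 11364 genes that reached a value of 10 in at least 3 samples, Cenpf ranked 3 from the lowest fold change. Its CtrlCre mean was above that of 93.4% of these genes, so that it was not scarce there, and its Cpt1bcKO mean was above that of 45.6%. An adjusted p below 0.05 with a lower level in Cpt1bcKO was reached by 0.906% of these genes, and groups that did not overlap, with the lower values in Cpt1bcKO, were found in 9.6%. In the samples with a resolved read worth, Cenpf rested on about 570 and 645 reads in CtrlCre replicates 2 and 3 and about 62 and 43 reads in Cpt1bcKO replicates 1 and 3.

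Mki67 (ENSMUSG00000031004, chr7:135689784-135716361, minus strand) was at 29, 36 and 43 in CtrlCre and at 28, 127 and 49 in Cpt1bcKO. The groups overlapped, since Cpt1bcKO replicate 1 had the lowest value of all and replicate 2 the highest by far. The means were 36.0 ± 7.0 and 68.0 ± 52.2 (SD, n = 3 each), and the log2 fold change was 0.64 (SE 0.46). Without Cpt1bcKO replicate 2 the Cpt1bcKO mean was 38.5 and the log2 fold change 0.06. Its values rested on about 38 to 47 reads in the 4 resolved samples.

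Top2a (ENSMUSG00000020914, chr11:98992943-99024189, minus strand) was the scarcest of the 3, at 9, 5 and 18 in CtrlCre and 16, 76 and 13 in Cpt1bcKO. The highest value was again in Cpt1bcKO replicate 2, while the other samples of that group lay below CtrlCre replicate 3. The means were 10.7 ± 6.66 and 35.0 ± 35.5 (SD, n = 3 each), and the log2 fold change was 1.34 (SE 0.66), which became 0.56 without Cpt1bcKO replicate 2, when the Cpt1bcKO mean was 14.5. Between 5 and 23 reads lay behind each value in the 4 resolved samples. Cenpf and Mki67 were above 10 in all 6 samples, but Top2a passed the minimum on CtrlCre replicate 3 and the Cpt1bcKO samples. In bulk RNA, fewer cells with a transcript and less of it per cell cannot be told apart.

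**Figure D1:**
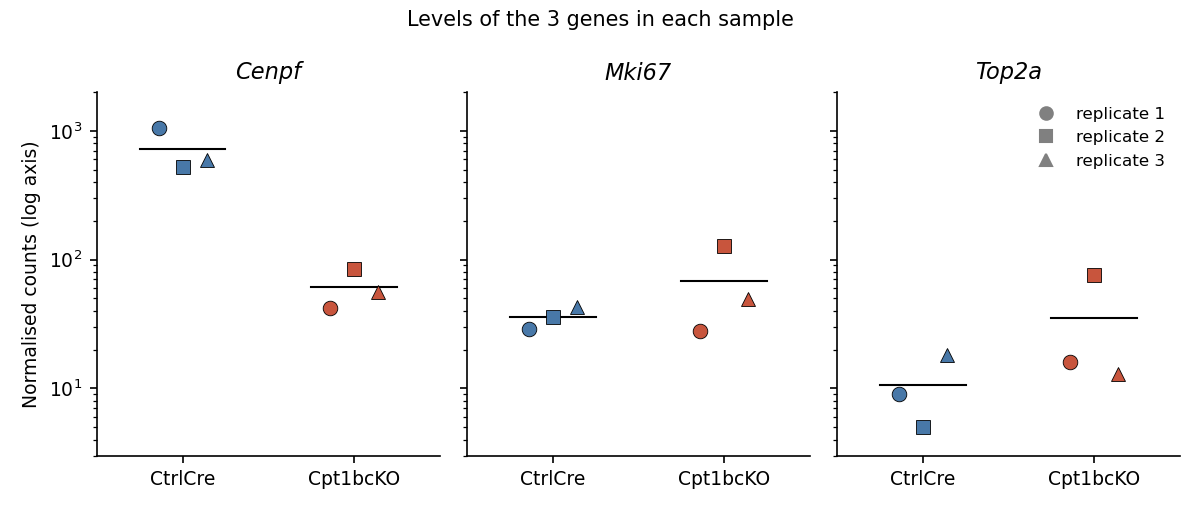
Normalised counts (log axis) of Cenpf, Mki67 and Top2a in 3 CtrlCre (blue) and 3 Cpt1bcKO (red) samples, with marker shapes for replicates and lines at the group means. Cenpf has means of 719 and 61.0 without overlap, whereas Mki67 and Top2a overlap between the groups and peak in Cpt1bcKO replicate 2, at 127 and 76.

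For comparison between genes, values were divided by the exon length in kb, which is 15.4 for Cenpf, 10.1 for Mki67 and 9.01 for Top2a. Mean levels per kb in CtrlCre were 46.6 for Cenpf, 3.58 for Mki67 and 1.18 for Top2a. In Cpt1bcKO the mean levels per kb were 3.95, 6.76 and 3.88 in the same order of genes, and without replicate 2 they were 3.18, 3.83 and 1.61. On this scale Cenpf was thus below the Mki67 mean in either case, and its place beside Top2a rested on that sample.

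The ratio of Cenpf to Mki67 per kb was 23.5, 9.40 and 8.99 in CtrlCre and 0.978, 0.436 and 0.745 in Cpt1bcKO. Per kb, Mki67 was thus nearly equal to Cenpf in Cpt1bcKO replicate 1 (2.78 and 2.72), above it in replicates 2 and 3, and far below it in each CtrlCre sample. This order depends on the division by length. Before it, Cenpf was the higher in Cpt1bcKO replicate 1 (42 against 28) and replicate 3 (56 against 49). The ratio of Cenpf to Top2a per kb was 67.8, 60.6 and 19.2 in CtrlCre and 1.53, 0.653 and 2.52 in Cpt1bcKO. Neither ratio overlapped between the groups, as the choice of the genes itself favours. The ratio of Mki67 to Top2a, which does not involve Cenpf, was 2.89, 6.45 and 2.14 in CtrlCre and 1.57, 1.5 and 3.38 in Cpt1bcKO, and it overlapped.

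**Figure D2:**
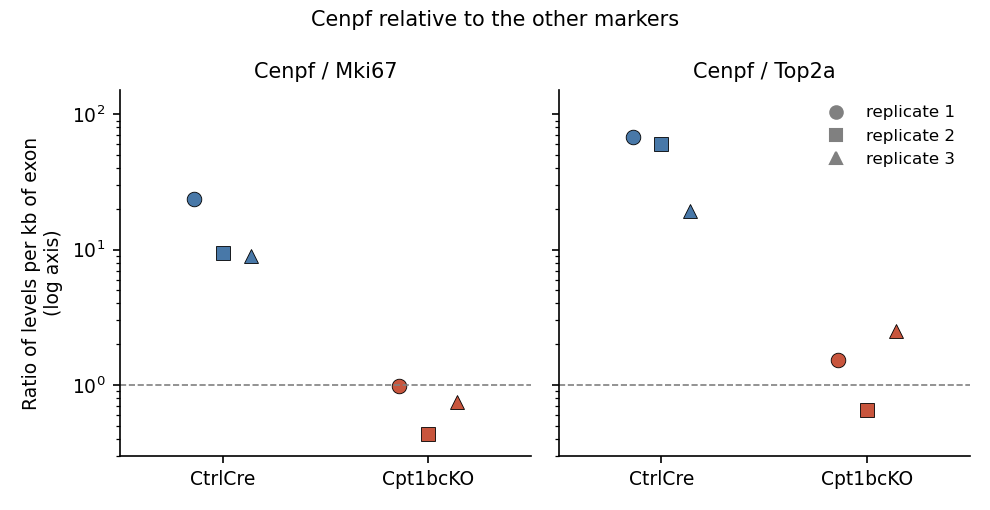
Ratio of Cenpf to Mki67 and to Top2a per kb of exon (log axis) in each sample, with the dashed line at equal levels. CtrlCre samples (blue) lie between 8.99 and 67.8, and Cpt1bcKO samples (red) between 0.436 and 2.52.

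Mitotic genes other than the 3 were compared in a list of 66, of which 61 were listed in the table and 24 passed the minimum. The list includes genes that are not confined to dividing cells, such as the abundant Top2b. Of its 12 mitotic kinase, cyclin and exit genes in the table, 10 lay below the minimum, so the tested genes say little about those. Ska1, Aurkb, Cdc25c, Espl1 and Mybl2 were not analysed here. None of the 24 had an adjusted p below 0.05 (smallest 0.173, limma, Benjamini–Hochberg), against 0.66% of all tested genes that were higher (75) and 0.906% that were lower (103). Scaling to the total without mitochondrially encoded and rRNA genes turned this balance to 102 higher and 74 lower, and again called no gene of the list. The number of genes called in all was 178, and it was 40 without Cpt1bcKO replicate 2, 67 to 86 without any 1 CtrlCre sample and 305 without Cpt1bcKO replicate 1. At an unadjusted p below 0.05, 3 were higher and 1 was lower, where 6.66% of all tested genes were higher and 7.22% lower. This count of 4 was 2 without CtrlCre replicate 2 and 2 without Cpt1bcKO replicate 2. The list's median log2 fold change was 0.11, against −0.0013 over all tested genes, with 15 genes above 0 and 9 below. Some tested genes, among them Spc24, Spc25, Kif11, Tpx2 and Kif18a, reached the minimum only with Cpt1bcKO samples, which favours values above 0. The position of Cenpf apart from the mitotic genes is seen in the plot of group means.

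**Figure D3:**
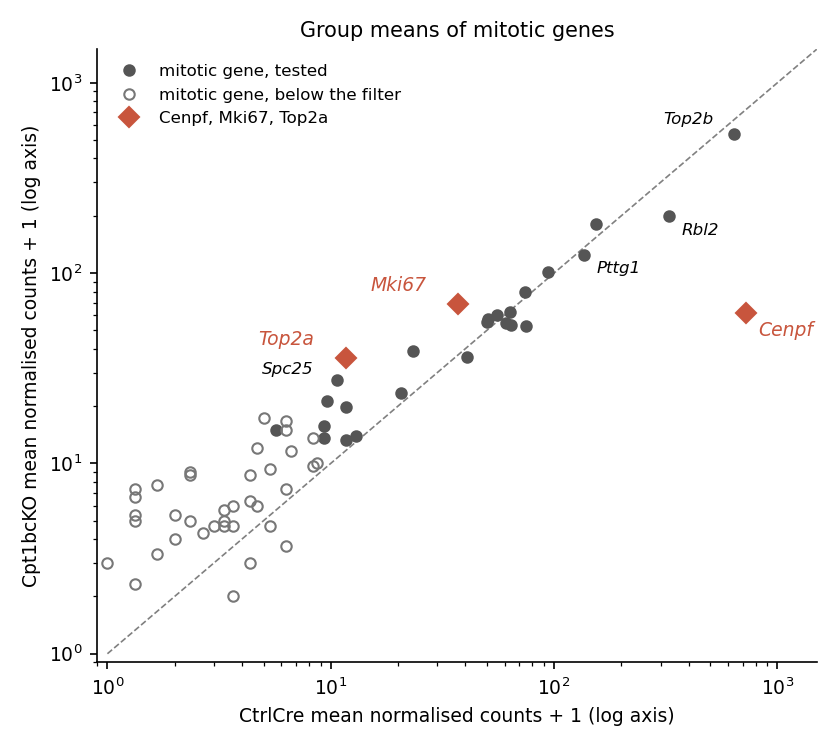
Mean normalised counts + 1 in CtrlCre (x axis) and Cpt1bcKO (y axis), both log axes, for 61 mitotic genes (filled where tested, open where below the minimum) and for Cenpf, Mki67 and Top2a (red diamonds), with the dashed line at equal means. Cenpf lies far below the line, and Mki67 and Top2a lie above it. Most of the abundant genes of the list, such as Top2b, lie near it.

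Of the kinetochore and spindle checkpoint genes, 8 were tested, 4 with a fold change above 0 and 4 below. Spc25, a subunit of the NDC80 complex that couples kinetochores to microtubules, was at 5, 8 and 16 in CtrlCre and at 20, 32 and 27 in Cpt1bcKO (log2 fold change 1.47, SE 0.45, limma adjusted p = 0.173). Its groups did not overlap, as in 9.13% of all tested genes with the higher values in Cpt1bcKO. Cenpa, the centromeric histone variant, had a log2 fold change of 0.08 (SE 0.23) and Spc24, the partner of Spc25, of 0.87 (SE 0.48), without reaching the threshold. In the chromosomal passenger complex only Incenp, its scaffold, was tested (log2 fold change −0.07, SE 0.54). Leaving out 1 sample gave −0.31 to 0.32 for Incenp and −0.12 to 0.20 for Cenpa.

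Transcripts of the kinases and cyclins that drive entry into mitosis were scarce, and most lay below the minimum. Cdk1, the mitotic kinase, was at 0, 1 and 3 in CtrlCre and at 7, 14 and 3 in Cpt1bcKO. Its partner Ccnb1 was at 0, 3 and 0 in CtrlCre and at 1, 8 and 0 in Cpt1bcKO. The group included 2 tested genes, Wee1, a kinase that restrains CDK1 (log2 fold change −0.59, SE 0.31, limma adjusted p = 0.430), and Pttg1, the separase inhibitor securin (log2 fold change −0.20, SE 0.38). Wee1 was at −0.28 without Cpt1bcKO replicate 1 and −0.91 without Cpt1bcKO replicate 3. Pttg1 turned to 0.12 without CtrlCre replicate 1 and 0.13 without Cpt1bcKO replicate 3, and was −0.63 without Cpt1bcKO replicate 1.

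Among genes of chromosome structure, the condensin subunit Smc2 was at 21, 21 and 25 in CtrlCre and at 33, 41 and 40 in Cpt1bcKO, without overlap (log2 fold change 0.74, SE 0.27, limma adjusted p = 0.249). Top2b, the topoisomerase II of non-dividing cells, was at 582, 689 and 643 in CtrlCre and at 560, 469 and 581 in Cpt1bcKO. Its groups did not overlap, but the log2 fold change of −0.25 (SE 0.15) did not pass the test (limma adjusted p = 0.483). Of the spindle and cytokinesis genes, 3 of 13 were tested, none past the adjusted threshold. Their log2 fold changes were 1.12 (SE 0.45) for the spindle motor Kif11, 1.66 (SE 0.78) for the spindle assembly factor Tpx2 and 0.71 (SE 0.43) for the kinesin Kif18a. CtrlCre samples alone would have passed none of the 3, so the minimum itself favours values above 0 and their shared direction is no result.

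The genes of G2/M transcription included 6 tested members, 5 above 0 and 1 below. The lower gene was Rbl2, encoding the p130 pocket protein of the DREAM complex, at 424, 238 and 321 in CtrlCre and at 277, 143 and 175 in Cpt1bcKO. Its groups overlapped (log2 fold change −0.74, SE 0.27, limma adjusted p = 0.25). Tfdp1, a dimerization partner of E2F factors, had a log2 fold change of 0.19 (SE 0.22).

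Per kb of exon, 1 of the 61 listed mitotic genes was above Cenpf in CtrlCre, namely Pttg1 at 67.5. In Cpt1bcKO 17 of 61 were above Cenpf, and 18 without replicate 2. The median over the 61 genes was 0.892 per kb in CtrlCre, and 1.94 per kb in Cpt1bcKO with replicate 2 and 0.894 without it. Mki67 had 15 genes above it in CtrlCre and 16 in Cpt1bcKO on the same scale, and Top2a had 24 and 17. Without Cpt1bcKO replicate 2 these counts were 17 for Mki67 and 23 for Top2a in Cpt1bcKO, so that Cenpf moved from near the top of this set into the range of the other genes.

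The peak of Mki67 and Top2a in Cpt1bcKO replicate 2 was shared by most of the scarce mitotic genes. Of the 61 genes, 39 (63.9%) had their single highest value in this sample, against 17.1% of all 16448 listed genes. Among the 37 mitotic genes below the minimum it was 31 (83.8%), against 22.6% of the 5084 listed genes below the minimum. The summed values of these 37 genes were 60, 133 and 128 in CtrlCre and 99, 489 and 95 in Cpt1bcKO, so that the other Cpt1bcKO samples lay within the range of CtrlCre.

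Leaving this sample out, a step chosen after the values were seen, changed the direction count of the scarce genes. With all samples, 33 of the 37 (89.2%) had a higher mean in Cpt1bcKO and 4 a lower mean, where 57.1% of all genes below the minimum had a higher mean. Without Cpt1bcKO replicate 2, 17 (45.9%) were higher, 19 lower and 1 equal, against 51.2% higher over all genes below the minimum. Cenpf was also highest there among the Cpt1bcKO samples, at 85, and its mean without it was 49.0.

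**Figure D4:**
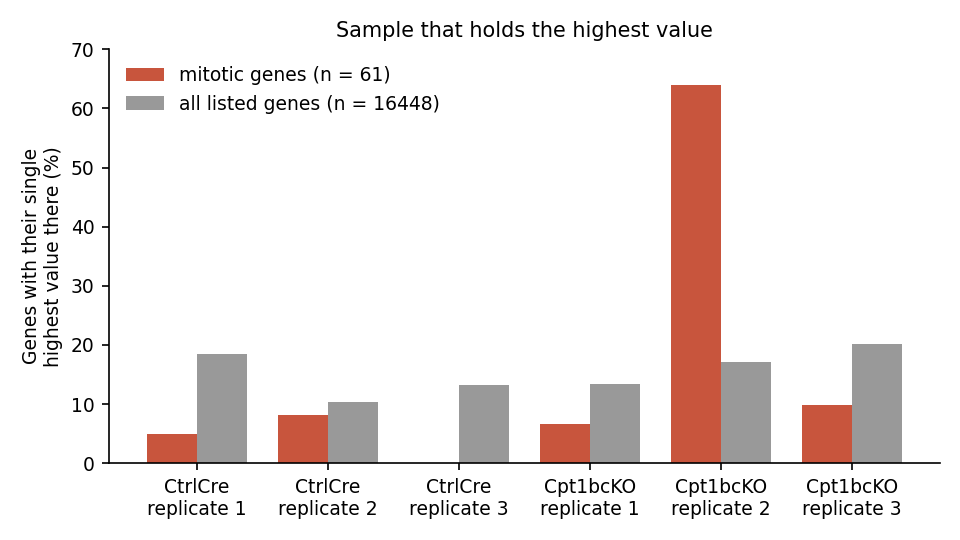
Percentage of genes whose single highest value is in the sample named on the x axis, for 61 mitotic genes (red bars) and all 16448 listed genes (grey bars). Cpt1bcKO replicate 2 holds 63.9% of the mitotic genes and 17.1% of all genes.

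Markers of other cells were compared in the same samples. Of the fibroblast markers, 7 were tested, all 7 with a higher level in Cpt1bcKO at an unadjusted p below 0.05, and 2 of them, Col1a1 and Lum (log2 fold changes 1.32 and 1.46), with a limma adjusted p of 0.0143 each. Over all tested genes, 6.66% were higher at an unadjusted p below 0.05 and 0.66% at an adjusted p below 0.05. Over all 8 fibroblast markers the sums were 498, 785 and 772 in CtrlCre and 1338, 1289 and 1108 in Cpt1bcKO, with none of the 8 at 0 in any sample. The 8 endothelial markers summed to 1241, 2356 and 2620 in CtrlCre and 2639, 2616 and 2308 in Cpt1bcKO. The 6 leukocyte markers in the table summed to 79 to 109 in CtrlCre and to 95 to 103 in Cpt1bcKO. Cpt1bcKO replicate 2 was not the highest Cpt1bcKO sample in the fibroblast and endothelial sums, and it was the highest of them in the leukocyte sum, at 103. The smooth muscle and pericyte markers summed to 542, 1481 and 1836 in CtrlCre and to 1474, 1371 and 1008 in Cpt1bcKO. The scarcest lists were higher in that sample than in the other Cpt1bcKO samples, with Schwann cell markers at 14, 37 and 13 and erythroid markers at 2, 18 and 1, against 15 to 25 and 3 to 20 in CtrlCre. The part of these cells in the levels of Mki67, Top2a and Cenpf was not tested.

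No gene for a protein that binds or modifies CENP-F passed the adjusted threshold. The list held 16 genes, 15 in the table, and 13 were tested, of which none had an adjusted p below 0.05 (smallest 0.351, limma) and 1 was higher and none lower at an unadjusted p below 0.05, where the shares over all tested genes were 6.66% and 7.22%. That gene was Hook2, encoding a microtubule linker protein, at 12, 17 and 12 in CtrlCre and 20, 21 and 36 in Cpt1bcKO (log2 fold change 0.83, SE 0.37). The count was 0 without CtrlCre replicate 1, CtrlCre replicate 3, Cpt1bcKO replicate 2 or Cpt1bcKO replicate 3. The median log2 fold change of the list was −0.15, with 5 genes above 0 and 8 below. Pafah1b1 (Lis1), a dynein regulator, was the most abundant, at 1444 ± 113 and 1265 ± 200 (SD, n = 3 each). Fntb, the β subunit of the farnesyltransferase that modifies the C terminus of CENP-F, had a log2 fold change of 0.59 (SE 0.32, limma adjusted p = 0.442). The kinetochore partners were scarce, with Bub1 at 0 to 8 and Cenpe at 1 to 19 over the 6 samples.

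Genes that organise microtubules at the nuclear envelope and the centrosome were mostly abundant, and 27 of 28 were tested. None had an adjusted p below 0.05 (smallest 0.181, limma), and at an unadjusted p below 0.05 only Pcnt was lower and none higher, against 7.22% and 6.66% of all tested genes. Without CtrlCre replicate 1, CtrlCre replicate 3 or Cpt1bcKO replicate 1, 1 was lower and 1 higher. Pcnt, encoding the scaffold pericentrin, was at 529, 534 and 560 in CtrlCre and 281, 366 and 458 in Cpt1bcKO, without overlap (log2 fold change −0.58, SE 0.18, limma adjusted p = 0.181). Akap6, which anchors such proteins at the nuclear envelope of muscle cells, had a log2 fold change of −0.18 (SE 0.13), and the centriole gene Cep135 one of 0.53 (SE 0.25). The groups of 7 tested genes did not overlap with the lower values in Cpt1bcKO, and those of 1 with the higher, against 9.6% and 9.13% of all tested genes. The median log2 fold change of the list was −0.08.

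The genes around the 3 loci were compared in the same way. Of 25 listed genes within 500 kb of a member, 17 were tested, 9 with a fold change above 0 and 8 below, with a median log2 fold change of 0.08. None had an adjusted p below 0.05 by limma, and 1 was lower and none higher at an unadjusted p below 0.05, against 7.22% and 6.66% of all tested genes. That gene was Krt222, encoding a keratin-like protein, 209 kb from Top2a, at 191, 146 and 190 in CtrlCre and 95, 88 and 111 in Cpt1bcKO (log2 fold change −0.83, SE 0.19, limma adjusted p = 0.0643). The count of 1 was 2 without CtrlCre replicate 1, CtrlCre replicate 3 or Cpt1bcKO replicate 1. The most abundant of these neighbours was Prox1, encoding a homeobox transcription factor, 430 kb from Cenpf, with a log2 fold change of −0.17 (SE 0.19). Near Cenpf 4 of 8 listed genes were tested, 3 with a fold change above 0 and 1 below. The scarce pseudogene Pdcd5-ps, at 6, 3 and 3 in CtrlCre and 0, 1 and 1 in Cpt1bcKO, was below the minimum and was not tested. Its groups did not overlap, as in 179 of the 5084 genes below the minimum with the lower values in Cpt1bcKO. Values this low rest on few reads. The gene nearest to Cenpf that was tested, Ptpn14, encoding a protein tyrosine phosphatase, lies 40.2 kb away and was at 162, 167 and 154 in CtrlCre and 162, 190 and 160 in Cpt1bcKO (log2 fold change 0.08, SE 0.16). On the other side of Cenpf no tested gene lay within this distance. Ptpre, 3.49 kb from Mki67, had a log2 fold change of 0.12 (SE 0.25). The nearest tested genes on either side of Top2a were Rara, encoding a retinoic acid receptor, at 0.17 (SE 0.27), and Igfbp4, encoding an insulin-like growth factor binding protein, at 0.72 (SE 0.36, limma adjusted p = 0.406). Igfbp4 was at 0.32 without CtrlCre replicate 1 and at 1.17 without CtrlCre replicate 3.

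The GENCODE vM21 annotation has the same start and end for each of the 3 genes as the table, and the RefSeq start of Mki67 used for its promoter lies 18 bases outside the table's gene end. It places a processed pseudogene of 141 bases within Cenpf and an unclassified transcript of 674 bases within Mki67, both on the opposite strand, and 2 snoRNA genes within Top2a, 1 on each strand. None of these is a row of the table. Whether strand was used in counting is not given in the sources used here, so that reads from the opposite strand cannot be told apart from those of the 3 genes.

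The genes most like each member were ranked by the root-mean-square difference of their log2 values, centred on the CtrlCre mean, over the 6 samples. Since the ranking uses these values, the similarity is a description. The nearest to Cenpf were Pdzrn4 (0.40), Aqp4 (0.44), Sbk2 (0.67), Gpr22 (0.70) and Rp1 (0.72), none of them on the mitotic list. Pdzrn4, Aqp4, Sbk2 and Rp1 passed the minimum on CtrlCre samples alone, with every Cpt1bcKO value below 10. The log2 fold change of Pdzrn4 was −3.95, −3.21 and −1.56 with pseudocounts of 0.5, 1 and 5. Its place in this ranking, made with a pseudocount of 1, therefore depends on that choice. Aqp4, encoding a water channel, was at 87, 41 and 61 in CtrlCre and 1, 7 and 6 in Cpt1bcKO. Gpr22, encoding an orphan G protein-coupled receptor, was at 443, 299 and 368 in CtrlCre and 35, 57 and 85 in Cpt1bcKO. These genes were low in all Cpt1bcKO samples, as Cenpf was.

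The nearest to Mki67 was Aspm, encoding a spindle pole protein (0.23), at 8, 13 and 9 in CtrlCre and 9, 35 and 14 in Cpt1bcKO. Gm37140 and Gm37195 followed at 0.24 and 0.25. The nearest to Top2a was Arhgap11a (0.39), at 7, 3 and 11 in CtrlCre and 10, 44 and 17 in Cpt1bcKO, followed by Slc24a2 (0.50) and Arntl (0.54). All of these genes shared the peak in Cpt1bcKO replicate 2, and none of them was among the genes nearest to Cenpf.

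**Figure D5:**
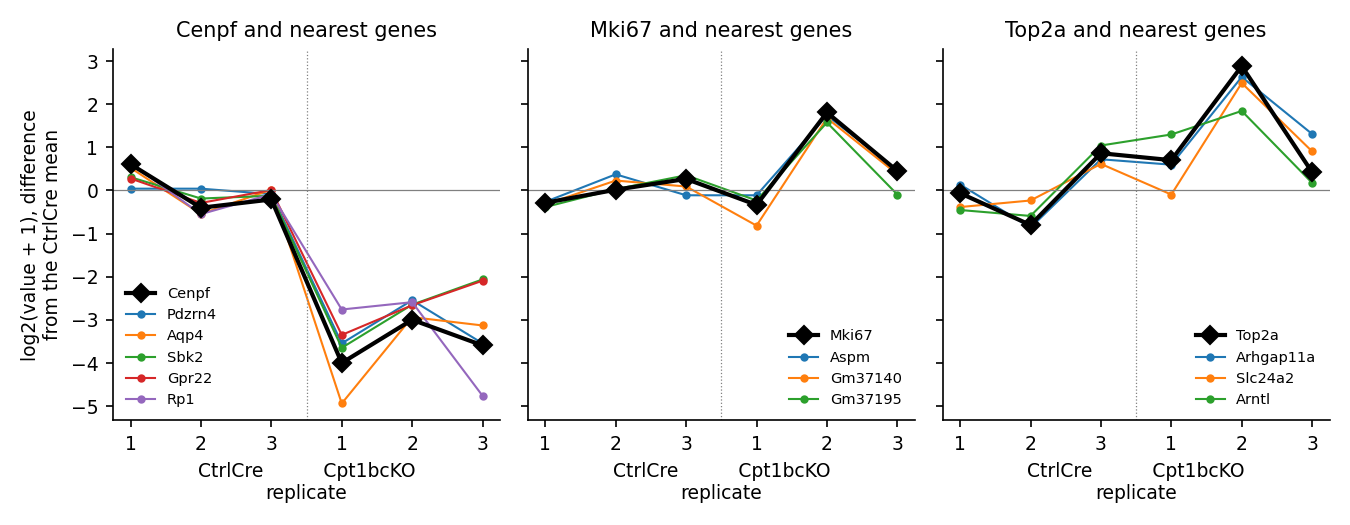
Difference of log2(value + 1) from the CtrlCre mean in each sample (x axis, replicates 1 to 3 of CtrlCre and then of Cpt1bcKO) for Cenpf, Mki67 and Top2a (black) and the genes most like each (coloured). Cenpf and its nearest genes are low in all Cpt1bcKO samples, and the others peak in Cpt1bcKO replicate 2.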

How the data were processed

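RNA-seq of CMs from 3 CtrlCre and 3 Cpt1bcKO mice was analysed. The authors mapped reads to GRCm38 and counted them on genes (per the submitters' processing notes, STAR 2.5.4b, featureCounts 1.6.0 and DESeq2 1.14.1). The deposited values are given here as a score: they are counts that the authors divided by a size factor per sample and rounded, and not raw counts. The table's columns of the authors' own comparison (group means, fold changes and p-values) were not used. Annotation release and strand setting of the counting are not given in the sources used here. The labels number the samples without naming litters or batches, and p-values measure the spread between these samples.

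The log2 of each value + 1 was used, and genes were tested where 3 or more samples reached 10. limma 3.58.1 (lmFit, eBayes with a trend) in R 4.3.3 was fitted over the 11364 genes that passed, with Benjamini–Hochberg adjustment. Tables and figures were made with Python 3.11.15, pandas 2.3.3, numpy 2.4.6 and matplotlib 3.10.9, and the steps were tested on simulated data. Exon lengths came from GENCODE vM21.

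The members and gene lists were chosen with earlier results of these data known. Named genes are the 3 members, Cpt1b, every listed gene with an adjusted p below 0.05, the 2 smallest p-values and the most abundant tested gene of each list or role group, Aurkb, Ccnb1, Cdk1, the nearest tested neighbours and the genes nearest in pattern. Bub1, Cenpe, Pdcd5-ps, the markers of other cells and sex-linked genes lie outside this rule, and those singled out were chosen after their values were seen. Alternatives were 2 other scalings, pseudocounts of 0.5 and 5, other filters, a replicate block, 1 prior variance for all genes and leaving out each sample.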

Additional observations from a re-analysis of the deposited data

How the results depend on the processing

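The fold changes of the 3 members kept their direction under the 2 other scalings, both other pseudocounts, the replicate block and each left-out sample, the alternatives computed for them. Leaving out 1 sample at a time gave −3.79 to −3.22 for Cenpf, 0.06 to 1.13 for Mki67 and 0.56 to 1.79 for Top2a on the log2 scale, and the lowest values for Mki67 and Top2a were those without Cpt1bcKO replicate 2. The other settings gave −3.54 to −3.42, 0.61 to 0.75 and 1.08 to 1.44. Scaling to the total without mitochondrially encoded and rRNA genes moved the median over all genes to 0.11.

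With the replicate number as a block, 1 mitotic gene (Rbl2, adjusted p = 0.0113 by limma), 1 microtubule organising gene (Pcnt, 0.0408) and 1 neighbouring gene (Krt222, 0.0146) passed the adjusted threshold, against 0 of each without it, and genes called in all rose from 178 to 603. The numbers were not taken as pairs, since deviations of the samples numbered 3 correlated at only 0.0684 (0.376 and 0.255 for numbers 1 and 2), and CtrlCre replicate 3 correlated best with Cpt1bcKO replicate 2 (0.119). Without genes of the X and Y chromosomes the same-numbered values were 0.331, 0.231 and 0.047 for numbers 1, 2 and 3. The samples numbered 1 also shared the high Xist. No other alternative gave a mitotic, CENP-F partner, microtubule organising or neighbouring gene past the adjusted threshold, and the cell type markers were not run under the alternatives. Without adjustment, the block gave 0 partner genes, 4 microtubule organising genes and 2 neighbouring genes, against 1 of each without it. Scaling to the total without mitochondrially encoded and rRNA genes gave 2 microtubule organising and 3 neighbouring genes, and 1 prior variance 2 partner and 2 microtubule organising genes. With no filter, 25 neighbouring genes were tested and 3 passed without adjustment, 1 higher and 2 lower. At an unadjusted p below 0.05 the mitotic count of 4 became 11 (10 higher and 1 lower) with no filter, which tests 61 mitotic genes in place of 24 and calls 1968 of 16439 genes in all, 2 with a value of at least 10 in all samples, which tests 16, and 2 without CtrlCre replicate 2 or without Cpt1bcKO replicate 2. With 1 prior variance for all genes the adjusted p of Cpt1b was 0.0563. The cause was not tested for the block, the left-out samples or the prior variance. Values of Top2a rest on few reads. The 37 mitotic genes below the minimum were not tested in the main results, only under alternatives such as the one with no filter.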
